A study of Rattus norvegicus with 10 samples.

Results

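Mt1, Mt2A and Slc30a1 are the zinc-buffering and zinc-exporting genes followed here over 5 groups of A7r5 cells, a rat line derived from aortic smooth muscle. They are 3 of 14218 named genes, each with 1 probe set among 31099 on the array, taken wherever the platform annotation names that gene and no other. The genes were chosen from measured values of these same arrays, among them the difference of Mt2A from empty vector, so the levels and the differences from empty vector are given as a description with no test.

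The study asked how classes of mutation in BMPR2, a receptor for bone morphogenetic proteins, alter expression in vascular smooth muscle cells, and it profiled total RNA with 2 arrays for each of 5 groups. The ED mutant cells carried T354G in the extracellular domain of BMPR2. The CD mutant cells carried 2579-2580delT in the cytoplasmic tail, and the KD mutant cells carried C994T in the kinase domain. Wild-type cells received unmutated human BMPR2, and empty vector cells received no receptor. Labels of the empty vector samples differ among themselves: their titles call them native A7r5, while their descriptions and transfection field give stable transfection with empty vector, which is followed here. Every difference from empty vector rests on these 2 arrays. Every group was normoxic and grew at about 50% confluence in DMEM with 10% serum. The labels do not say whether a line was 1 clone or a pool, nor whether the 2 arrays came from separate cultures, so a p-value here speaks only to the spread of the 2 arrays in each group, which may be technical error.

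Metallothioneins are small cysteine-rich proteins that bind zinc and copper ions. In mammals their genes respond to zinc through the zinc-finger factor MTF-1, which binds metal response elements (MREs) in their promoters, and they also respond to glucocorticoids and oxidative stress. Mt1 and Mt2A encode the widely expressed forms. Slc30a1, also called ZnT1, encodes the zinc exporter of the plasma membrane and is a further MTF-1 target in mice.

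The KD mutant arrays stood apart from the other 8. Pearson's r across probe sets was 0.709 to 0.719 between a KD mutant array and any other, 0.992 between the 2 KD mutant arrays, and 0.992 to 0.996 among the rest. Array medians were log2 4.94 to 4.95 for the KD mutant, against 5.31 to 5.35 elsewhere. The smooth muscle label was checked against 8 markers, whose mean was log2 7.49 to 7.71 for the KD mutant, against 5.79 to 5.94 on other arrays. On average, 6 of these 8 reached the filter level of the tests (log2 4.82) for the KD mutant and 5 on the other arrays, and 6 were higher and 2 lower for the KD mutant. Tagln, which encodes transgelin of the smooth muscle cytoskeleton, averaged 11.33 in KD mutant cells and 4.91 to 5.10 in the other groups. Members of the list disagreed: Smtn, which encodes smoothelin, averaged 8.34 in KD mutant and 10.38 in wild-type cells (limma adjusted p = 8.34e-08), and Myh11, the smooth muscle myosin heavy chain, averaged 6.95 in KD mutant and 6.78 in wild-type cells (limma adjusted p = 0.284). Epithelial markers ran the other way, with a mean over 7 genes of 5.71 to 5.81 for the KD mutant, against 7.43 to 7.80 on other arrays, and 5 of the 7 reached the filter level on both. Over 7 fibroblast markers the mean was 7.13 to 7.14 for the KD mutant, against 4.76 to 5.0 on other arrays. The collagen genes Col1a1, Col1a2 and Col3a1 were higher for the KD mutant, with Col1a2 averaging 13.62 in KD mutant and 3.88 in wild-type cells, and the other 4, Pdgfra, Pdgfrb, Lum and Dcn, were lower. None of 4 endothelial markers averaged above the filter level in either. Each result on the KD mutant is therefore given apart from the rest, and the part of these differences in it was not tested. In RNA from whole cultures, fewer cells that express a gene and less RNA per cell cannot be told apart.

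The promoters are shown because the metallothioneins and Slc30a1 are known for the MREs they carry. They are RefSeq sequences of the rat assembly GRCr8, from 250 bases before to 50 bases after the annotated start, each written in the direction of its gene, and all 3 members matched an entry. Mt2A lies at chr19:10838659-10838958 on the minus strand, Mt1 at chr19:10832926-10833225 on the minus strand, and Slc30a1 at chr13:106021769-106022068 on the plus strand. Capitals mark each match to an MRE core, TGCACNC or TGCGCNC, on either strand.

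Mt2A: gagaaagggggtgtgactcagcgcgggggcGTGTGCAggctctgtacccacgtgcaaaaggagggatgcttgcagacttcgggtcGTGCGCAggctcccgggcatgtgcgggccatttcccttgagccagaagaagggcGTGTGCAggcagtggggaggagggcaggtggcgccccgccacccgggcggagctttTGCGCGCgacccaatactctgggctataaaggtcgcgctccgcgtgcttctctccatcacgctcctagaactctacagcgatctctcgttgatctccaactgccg

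Mt1: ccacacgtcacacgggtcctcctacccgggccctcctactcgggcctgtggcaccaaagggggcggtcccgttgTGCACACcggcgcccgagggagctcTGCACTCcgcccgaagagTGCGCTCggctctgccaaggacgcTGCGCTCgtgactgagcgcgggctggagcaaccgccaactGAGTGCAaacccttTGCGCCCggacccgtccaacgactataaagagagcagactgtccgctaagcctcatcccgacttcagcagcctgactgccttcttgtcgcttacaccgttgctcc

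Slc30a1: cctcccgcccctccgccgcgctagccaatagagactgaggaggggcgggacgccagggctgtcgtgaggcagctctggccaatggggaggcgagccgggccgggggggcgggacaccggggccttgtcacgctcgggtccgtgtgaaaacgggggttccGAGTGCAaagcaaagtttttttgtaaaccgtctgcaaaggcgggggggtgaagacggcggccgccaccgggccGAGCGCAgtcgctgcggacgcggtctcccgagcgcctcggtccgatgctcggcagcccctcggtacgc

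The Mt1 promoter held 6 MRE cores, a number reached by 10 of 33469 rat promoters of this length (0.0299%). The Mt2A promoter held 4, reached by 86 promoters (0.257%), and that of Slc30a1 held 2, reached by 1805 (5.39%). At least 1 core was present in 8110 promoters (24.2%), with TGCACNC in 12.2% and TGCGCNC in 14.1%. Overlapping matches were counted once. The core of the antioxidant response element, TGACNNNGC on either strand, occurred in all 3 promoters and in 12.1% of all promoters, and overlapped no MRE core. Counted from the annotated start, it began at base -237 in Mt2A, -101 in Mt1 and -130 in Slc30a1. A TATAAA box on the gene's own strand began at base -31 in Mt2A and -32 in Mt1. These letters were not in the Slc30a1 window, and 8.80% of all promoters held them. The GC content was 63.7% for Mt2A, 65.0% for Mt1 and 70.3% for Slc30a1. In the RefSeq annotation Mt1, Mt2A, Mt3 and Mt4 are consecutive protein-coding genes on chromosome 19, whereas Slc30a1 lies on chromosome 13. These matches describe letters, not occupied sites.

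**Figure D1:**
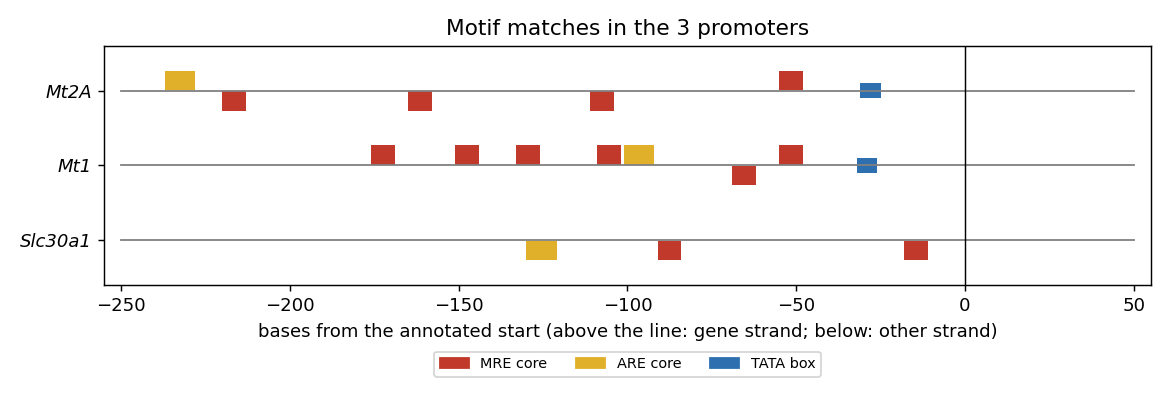
Position of motif matches in the RefSeq promoters of Mt2A, Mt1 and Slc30a1, in bases from the annotated start (vertical line). Boxes above a gene's line are on its own strand and boxes below on the other; Mt1 holds 6 MRE cores, Mt2A 4 and Slc30a1 2.

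Mt2A was higher with each of 3 receptor constructs than with empty vector, and it was far lower on the KD mutant arrays. All values are log2 summaries made with RMA (robust multi-array average), so a difference of 1 is a doubling. Mt2A read 10.26 and 10.08 on the ED mutant arrays, 10.11 and 10.13 on the CD mutant arrays, 6.54 and 6.50 on the KD mutant arrays, 10.02 on both wild-type arrays, and 9.39 and 9.09 on the empty vector arrays. The 6 arrays of ED mutant, CD mutant and wild-type cells all lay above both empty vector arrays, and both KD mutant arrays lay below every other array. The groups did not overlap in any of these comparisons with empty vector. The epithelial marker Cdh1, which encodes E-cadherin, also had the 6 arrays above empty vector and the KD mutant lowest. Its values were 10.27 and 10.24 on the ED mutant arrays, 9.53 and 9.80 on the CD mutant arrays, and 5.997 and 5.74 for the KD mutant. They were 9.65 and 9.70 for wild type, and 9.22 and 9.26 for empty vector. Other epithelial markers differed from this: Krt8, Krt18 and Krt19 averaged lower in the CD mutant than with empty vector, and Cldn3 averaged highest with empty vector. The mean over all 7 epithelial markers was 7.78 and 7.80 for the ED mutant, 7.43 and 7.46 for the CD mutant, 5.81 and 5.71 for the KD mutant, 7.51 and 7.54 for wild type, and 7.50 and 7.46 for empty vector. For the CD mutant this list mean did not lie above empty vector, and the part of these markers in the Mt2A levels was not tested.

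The difference from empty vector was 0.93 for the ED mutant, or 1.90-fold, 0.88 for the CD mutant, or 1.83-fold, and 0.78 for wild type, or 1.72-fold, each with a standard error of 0.12. These 3 differences share the same 2 empty vector arrays, which were themselves 0.30 apart. The gap between the nearest arrays was 0.68 for the ED mutant, 0.71 for the CD mutant and 0.63 for wild type. Of 22502 probe sets tested, 1393 (6.19%) had all 6 such arrays above both empty vector arrays. The difference of the KD mutant from empty vector was -2.72 on the log2 scale, 6.58-fold lower.

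The receptor constructs other than the KD mutant did not differ detectably in Mt2A. Tests used limma on all 10 arrays, over probe sets that reached log2 4.82, the 40th percentile of all values, on at least 2 arrays, with a Benjamini-Hochberg adjusted p under 0.05 counted as changed. The ED mutant exceeded wild type by 0.15 (95% interval -0.11 to 0.41, limma adjusted p = 0.862). The CD mutant exceeded wild type by 0.10 (-0.16 to 0.35, limma adjusted p = 1), and the ED mutant exceeded the CD mutant by 0.05 (-0.21 to 0.31, limma adjusted p = 0.942). Each interval holds 0. In order of their means the groups ran ED mutant (10.17 ± 0.13), CD mutant (10.12 ± 0.02), wild type (10.02 ± 0.0013), empty vector (9.24 ± 0.21) and KD mutant (6.52 ± 0.03; SD, n = 2 each), and ED and CD mutant arrays overlapped.

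**Figure D2:**
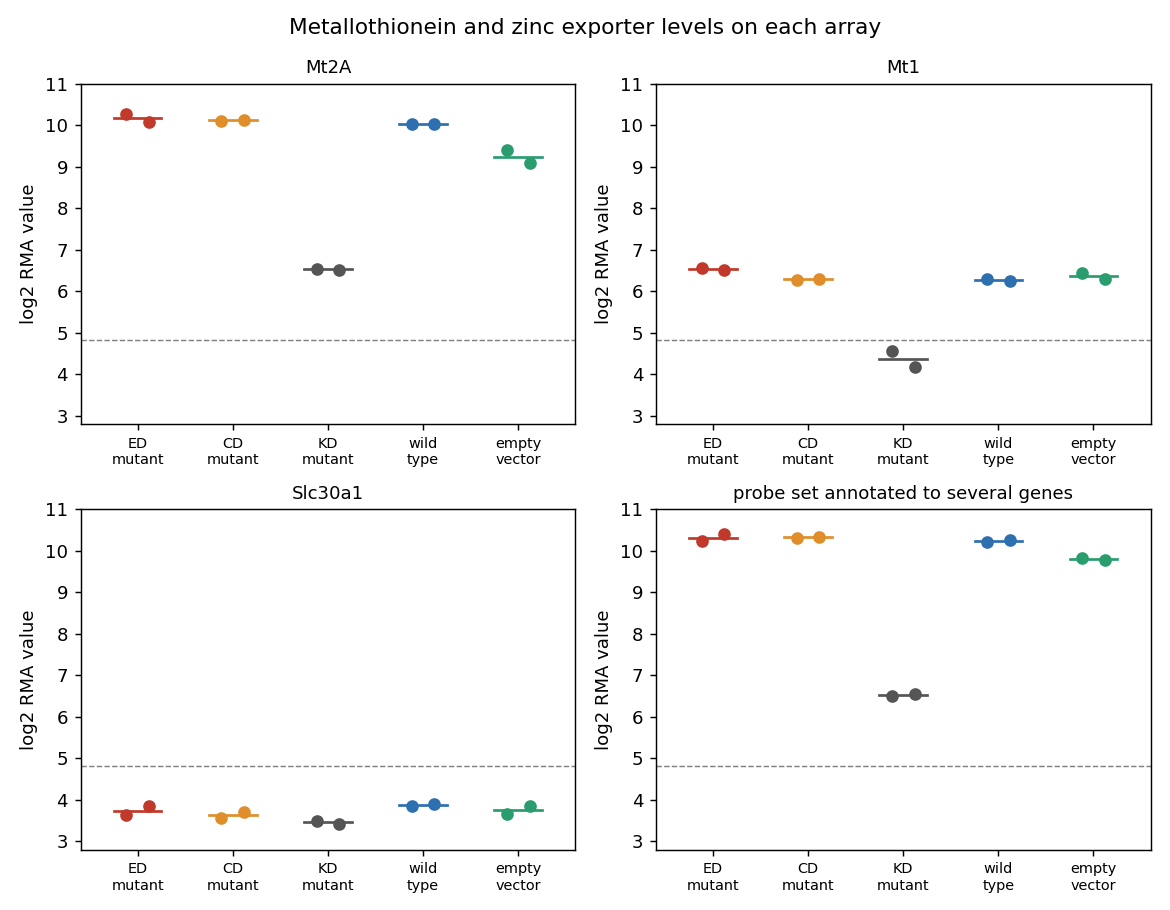
Deposited log2 RMA value of Mt2A, Mt1, Slc30a1 and a probe set annotated to several genes on each of 10 arrays, by transfected construct. Points are arrays, horizontal bars group means of 2 arrays, and the dashed line the filter level of 4.82; the 2 empty vector arrays of Mt2A sit below the 6 ED mutant, CD mutant and wild-type arrays, and both KD mutant arrays sit lowest in every panel.

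By the 1 probe set annotated to it alone, Mt1 stayed close to empty vector in ED mutant, CD mutant and wild-type cells. It read 6.57 and 6.50 on the ED mutant arrays, 6.26 and 6.30 on the CD mutant arrays, 4.56 and 4.17 on the KD mutant arrays, 6.29 and 6.24 on wild-type arrays, and 6.43 and 6.28 on the empty vector arrays. Wild-type and CD mutant arrays overlapped those of empty vector, ED mutant arrays lay just above them, and KD mutant arrays lay below all others and under the filter level. The difference from empty vector was 0.17 for the ED mutant, -0.08 for the CD mutant and -0.09 for wild type, each with a standard error of 0.13. For the KD mutant it was -1.99. A brighter probe set, annotated to Mt1 together with Mt1f and Ttr, lay 0.43 to 0.53 above empty vector in ED mutant, CD mutant and wild-type cells.

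Among receptor constructs the ED mutant had the highest Mt1 level on both arrays, but no comparison without the KD mutant passed the test. Its excess was 0.26 over wild type (95% interval -0.02 to 0.54, limma adjusted p = 0.683) and 0.25 over the CD mutant (-0.03 to 0.53, limma adjusted p = 0.583). The CD mutant and wild type differed by 0.01 (-0.27 to 0.29, limma adjusted p = 1). The order of Mt1 means was ED mutant (6.53 ± 0.05), empty vector (6.36 ± 0.11), CD mutant (6.28 ± 0.03), wild type (6.27 ± 0.04) and KD mutant (4.37 ± 0.27; SD, n = 2 each), and from empty vector to wild type neighbours overlapped.

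A further probe set is annotated to 3 genes, Mt1f, Ttr and Mt1, and so counts for no member. It was examined after its values were seen. It read 10.24 and 10.41 on the ED mutant arrays, 10.32 and 10.34 on the CD mutant arrays, 6.50 and 6.56 on the KD mutant arrays, 10.20 and 10.26 on wild-type arrays, and 9.82 and 9.78 on the empty vector arrays. As with Mt2A, the 6 ED mutant, CD mutant and wild-type arrays lay above both empty vector arrays. The differences from empty vector were 0.52 for the ED mutant, 0.53 for the CD mutant and 0.43 for wild type, smaller than those of Mt2A, and -3.27 for the KD mutant. Over the 8 arrays without the KD mutant, each profile centred on its mean, the mean absolute distance of this probe set was 0.15 from Mt2A and 0.22 from Mt1, and Mt1 and Mt2A were 0.32 apart. Metallothionein genes are near-identical in sequence over parts of their coding region, so signal shared between them cannot be told apart here.

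Slc30a1, the exporter, stayed below the filter level on every array. It read 3.63 and 3.85 on the ED mutant arrays, 3.56 and 3.70 on the CD mutant arrays, 3.50 and 3.42 on the KD mutant arrays, 3.84 and 3.90 on wild-type arrays, and 3.65 and 3.86 on the empty vector arrays. ED mutant, CD mutant and wild-type arrays each overlapped those of empty vector. Without the filter, the difference from empty vector was -0.02 for the ED mutant, -0.13 for the CD mutant and 0.11 for wild type, with a standard error of 0.12. So 2 of 3 members passed the filter on low values, and Slc30a1 was not tested. RMA compresses differences at such low signal, and no detection call was used here to say whether the transcript was present.

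On the KD mutant arrays both tested members fell. Mt2A averaged 6.52 ± 0.03 in KD mutant cells and 10.02 ± 0.0013 in wild-type cells (SD, n = 2 each), a difference of -3.50, or 11.3-fold lower (95% interval -3.76 to -3.24, limma adjusted p = 7.78e-11). Mt1 averaged 4.37 ± 0.27 in KD mutant cells and 6.27 ± 0.04 in wild-type cells, a difference of -1.90 (-2.18 to -1.62, limma adjusted p = 3.5e-08). Both KD mutant values of Mt1 were under the filter level, so Mt1 passed the filter through the other groups, and its difference is one against a level where RMA compresses change. Calls were common in this comparison: 89.6% of tested probe sets were called and 55.1% were called lower, so a call by itself says little about the members. Of 22502 probe sets, 40 had a difference as low as that of Mt2A (0.178%). The difference of Mt2A from empty vector entered the choice of genes, and wild type was among the groups above empty vector. The rank and the test of Mt2A against wild type are therefore not independent of that choice. Against empty vector the KD mutant differed in Mt2A by -2.72.

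The size of the fall moved with the scaling of the arrays. The median difference of all tested probe sets was -0.56 as deposited, -0.46 after quantile normalization and -0.10 with each array centred on its median. With centred arrays 9657 probe sets were called higher and 10356 lower, against 7762 higher and 12404 lower as deposited. The difference of Mt2A was -3.79 after quantile normalization and -3.10 after centring, and that of Mt1 was -1.53 and -1.51. Slc30a1 differed by -0.41 between KD mutant and wild-type cells as deposited, but by 0.12 after quantile normalization and -0.02 after centring. Its direction on the KD mutant arrays therefore depended on the scaling.

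In the comparisons that the KD mutant does not enter, few probe sets were called anywhere. The share called was 0.529% for the ED mutant against empty vector, 0.111% for the CD mutant against empty vector and 0.0133% for wild type against empty vector. It was 0.164% for the ED mutant against wild type and 0.351% for the ED against the CD mutant. For the CD mutant against wild type limma called 0 probe sets (0%), with 784 at an unadjusted p under 0.05. Among the 2 tested members, 0 were called in the ED mutant against wild type, the CD mutant against wild type, or the ED against the CD mutant, and none reached an unadjusted p under 0.05.

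The rest of the zinc system was read from lists of metallothionein, zinc, copper, iron, stress and glucocorticoid genes, 67 in all, of which 60 were measured and 58 tested. Against empty vector limma called 0 of 58 in wild type and 0 in the CD mutant, with 6 and 8 at an unadjusted p under 0.05. It called 1 of 58 in the ED mutant, Sgk1, with 8 at an unadjusted p under 0.05, and no listed metallothionein or zinc transporter. The median over the 58 was 0.01 for the ED mutant, -0.01 for the CD mutant and -0.04 for wild type, beside 0.00 over all tested probe sets in each comparison. Between receptor constructs limma called 1 of 58 for the ED mutant against wild type and 1 for the ED against the CD mutant. It called 0 for the CD mutant against wild type. In that order, 8, 10 and 2 of the 58 had an unadjusted p under 0.05. Over all 22502 tested probe sets, 1721, 2113 and 784 did. Against empty vector, the count over all tested probe sets was 1471 for wild type, 1967 for the CD mutant and 2558 for the ED mutant. Whether the lists exceeded these shares was not tested.

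Neither Mt3 nor Mt4 was called against empty vector. Mt3, a form best known from brain, differed from empty vector by -0.02 in the ED mutant, 0.05 in the CD mutant and -0.02 in wild type. Mt4, best known from stratified epithelium, differed by 0.04 in the ED mutant, 0.17 in the CD mutant and 0.16 in wild type, with standard errors of 0.14 and limma adjusted p of 0.954, 0.808 and 0.942. Mtf1, the metal-sensing factor, differed by -0.02, -0.13 and 0.02 in ED mutant, CD mutant and wild-type cells.

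The zinc transporters gave 0 calls among 7 SLC30 exporters and 0 among 11 SLC39 importers in each comparison without the KD mutant, by limma at an adjusted p under 0.05. Against empty vector, 2 exporters and 2 importers in the CD mutant, and 1 importer each in the ED mutant and wild type, had an unadjusted p under 0.05. Of all 22502 tested probe sets, 1967 did in the CD mutant, 2558 in the ED mutant and 1471 in wild type. The SLC30 genes, a family most of whose members carry zinc out of the cytoplasm, had a median difference from empty vector of 0.06 in the ED mutant, 0.04 in the CD mutant and 0.11 in wild type. Their largest single difference was that of Slc30a9. It read 7.13 and 7.18 on the ED mutant arrays, 7.33 and 7.35 on the CD mutant arrays, 7.30 and 7.25 on wild-type arrays, and 6.997 and 6.855 on the empty vector arrays. The 6 receptor arrays lay above empty vector, by 0.41 in the CD mutant mean (SE 0.16, limma adjusted p = 0.499). So did those of 6.19% of all tested probe sets. The gene has 3 probe sets, and only the brightest is given.

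The SLC39 genes, which carry zinc into the cytoplasm, had medians of -0.04 in the ED mutant, -0.01 in the CD mutant and -0.05 in wild type. Slc39a6, also called ZIP6, differed most. It read 7.55 and 7.49 on the ED mutant arrays, 7.58 and 7.53 on the CD mutant arrays, 7.81 and 7.58 on wild-type arrays, and 7.17 and 7.36 on the empty vector arrays. All 6 receptor arrays lay above empty vector, by 0.43 in the wild-type mean (SE 0.11, limma adjusted p = 0.384). This placing was shared by 6.19% of all tested probe sets. Here too only the brightest of 3 probe sets is given.

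**Figure D3:**
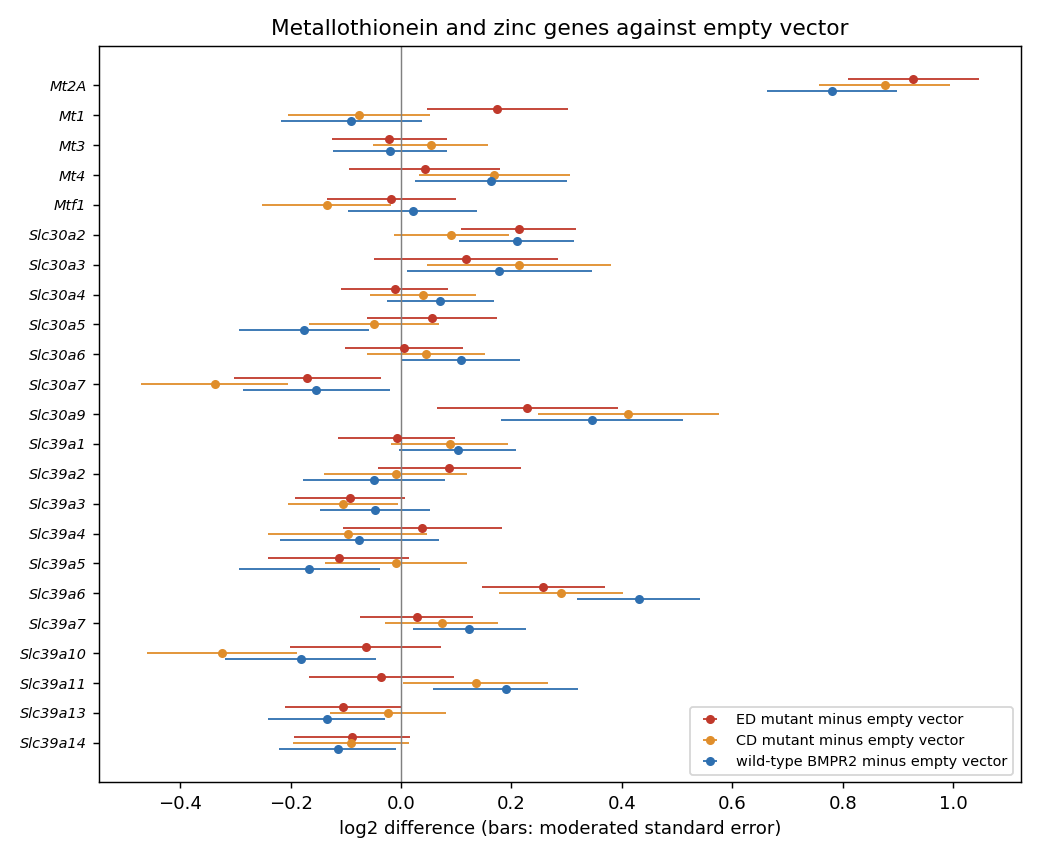
Log2 difference from empty vector of Mt2A, Mt1 and each tested metallothionein, MTF-1 and zinc transporter gene, for the ED mutant, the CD mutant and wild-type BMPR2. Bars are the moderated standard error of limma; Mt2A lies at 0.78 to 0.93 and every other gene shown lies within 0.45 of 0. Slc30a1 was not tested and is not drawn.

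Among genes that answer to copper, iron, stress and glucocorticoids, Sgk1 alone was called in the comparisons without the KD mutant. Sgk1, a serum- and glucocorticoid-induced kinase, read 11.37 and 11.51 on the ED mutant arrays, 10.43 and 10.51 on the CD mutant arrays, 10.62 and 10.70 on wild-type arrays, and 10.42 and 10.39 on the empty vector arrays. The ED mutant arrays lay above all the others. Sgk1 rose in the ED mutant by 1.04 over empty vector (SE 0.10, 2.06-fold, limma adjusted p = 0.00146), by 0.78 over wild type (limma adjusted p = 0.0229) and by 0.97 over the CD mutant (limma adjusted p = 0.00253). Some epithelial markers were also higher in the ED mutant: Cdh1 rose by 1.01 over empty vector (limma adjusted p = 0.00364). The keratin genes Krt19 and Krt18 rose over the CD mutant by 0.72 (limma adjusted p = 0.0132) and 0.52 (limma adjusted p = 0.0482). Over wild type Cdh1, Krt19 and Krt18 were not called (limma adjusted p = 0.151, 0.112 and 0.211). Nor was Cdh1 over the CD mutant (limma adjusted p = 0.0902), or Krt19 and Krt18 over empty vector (limma adjusted p = 0.307 and 0.0902). Cldn3 and Cldn4, of the same list, went the other way, by -0.13 and -0.07 from empty vector. The part of these markers in the Sgk1 result was not tested. The gene lists were chosen with earlier results of these data known, so the Sgk1 tests may not be independent of that choice. The call against wild type was lost when any of the 4 arrays compared was left out. The other 10 tested genes of the glucocorticoid list were not called in the ED mutant, and the list median there was 0.02 against empty vector.

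The other lists gave no call without the KD mutant. In the copper list of 10 genes, Slc31a2, a relative of the copper importer, differed most from empty vector, by -0.40 in the CD mutant (SE 0.13, limma adjusted p = 0.384), -0.06 in the ED mutant and -0.23 in wild type. In the iron list of 7, Aco1, the iron-responsive RNA-binding protein also known as cytosolic aconitase, differed by 0.38 in the CD mutant (SE 0.13, limma adjusted p = 0.433), 0.36 in the ED mutant and -0.06 in wild type, with all these levels below log2 4.82. In the stress list of 9, Gsr, which encodes glutathione reductase, differed by 0.39 in the ED mutant (SE 0.13, limma adjusted p = 0.239), -0.14 in the CD mutant and -0.01 in wild type. The medians of the stress list were -0.01 in the ED mutant, -0.12 in the CD mutant and -0.17 in wild type.

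In the KD mutant the zinc genes moved in both directions. Of the 21 tested genes of the metallothionein, SLC30 and SLC39 lists, limma called 11 higher and 10 lower than in wild type. After quantile normalization 9 were called higher and 10 lower, and after centring 11 and 8. Over all 58 list genes 22 were called higher and 33 lower, or 94.8%, near the 89.6% of all tested probe sets, so these counts set the lists apart from nothing. Genes named for this comparison were picked with their values in view. The other metallothioneins fell with Mt2A and Mt1, with differences of -1.76 for Mt3 (limma adjusted p = 1.15e-08) and -0.88 for Mt4 (limma adjusted p = 6.11e-05). Mtf1 fell by 0.56 (limma adjusted p = 0.000624), the size of the median of all probe sets, and with centred arrays its difference of -0.17 was not called (adjusted p = 0.199).

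Of 7 SLC30 genes 4 rose and 3 fell in the KD mutant, and of 11 SLC39 genes 7 rose and 4 fell. The largest rise was that of Slc30a5, 3.92 on the log2 scale, followed among exporters by its partner Slc30a6 at 2.44. These encode a pair of subunits that load zinc into the early secretory pathway. Slc39a7, which releases zinc from the endoplasmic reticulum, rose by 2.93, while Slc39a6 fell by 1.98 and Slc30a2 fell by 1.81. These 5 transporters kept their direction after quantile normalization and after centring. Slc30a7 did not: it differed by 0.42 as deposited, -0.23 after quantile normalization and 0.81 after centring. Sgk1 fell by 3.06 in the KD mutant, with 7.57 and 7.63 on its arrays. Of the 11 glucocorticoid genes 8 were called lower and 1 higher, where 55.1% of all tested probe sets were called lower. After centring 8 were called lower and 3 higher, and after quantile normalization 9 and 1. Fkbp5 and Tsc22d3 of this list changed direction with the scaling.

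**Figure D4:**
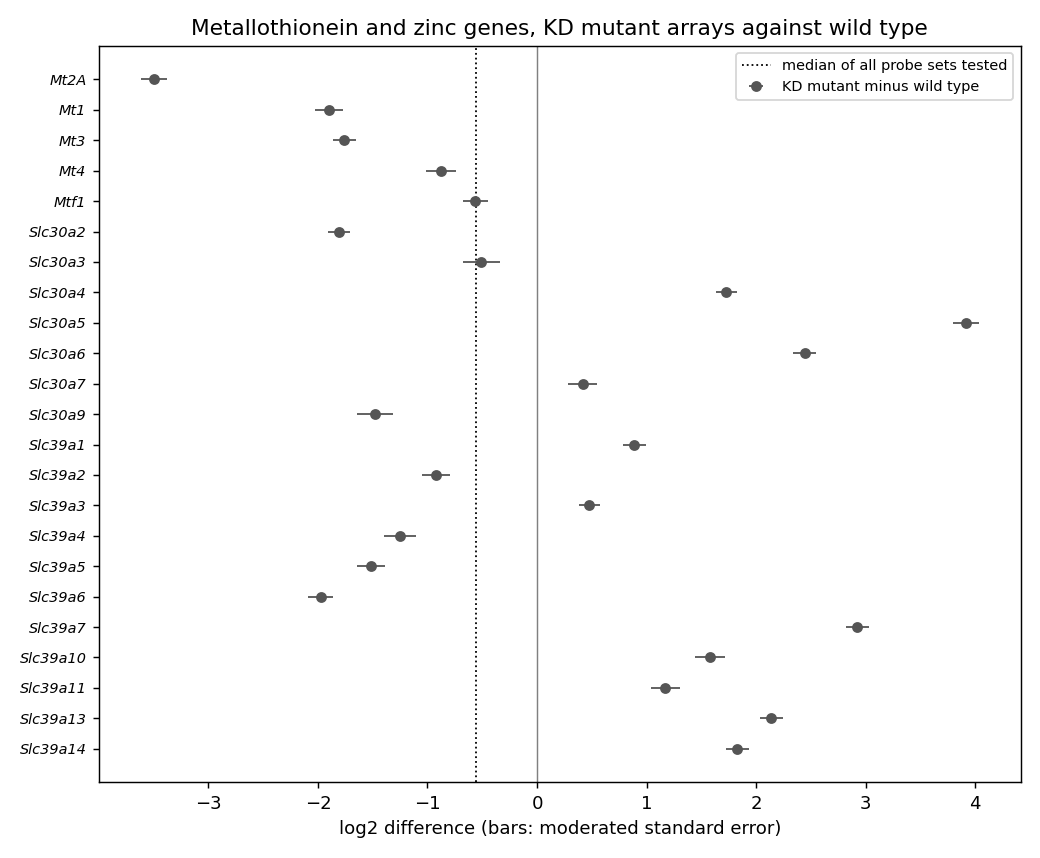
Log2 difference of the KD mutant from wild-type BMPR2 for Mt2A, Mt1 and each tested metallothionein, MTF-1 and zinc transporter gene. Bars are the moderated standard error of limma and the dotted line is the median of all tested probe sets, -0.56; Mt2A lies lowest at -3.50 and Slc30a5 highest at 3.92.

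Genes with a profile most like that of Mt2A were sought over the 8 arrays without the KD mutant, as the mean absolute distance between log2 profiles centred on their own means, with 1 probe set per gene among 16681. The 3 nearest were Depp1 at 0.08, Ypel2 at 0.11 and Gstm2 at 0.11, where Mt2A itself spanned 1.17. Only 19 probe sets lay within 0.15 of Mt2A. Depp1, a gene induced by FOXO factors, read 7.28 and 7.26 on the ED mutant arrays, 7.16 and 7.13 on the CD mutant arrays, 7.10 and 7.16 on wild-type arrays, and 6.53 and 6.41 on the empty vector arrays. Its order of groups was that of Mt2A, with empty vector apart from the rest.

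Depp1 differed from empty vector by 0.80 in the ED mutant, 0.67 in the CD mutant and 0.66 in wild type. The corresponding differences were 0.72, 0.67 and 0.65 for Ypel2. For Gstm2, a glutathione S-transferase, they were 0.91, 0.81 and 0.79. The likeness did not extend to the KD mutant arrays, which took no part in the choice. There Ypel2 averaged 4.91, below its other groups, as did Mt2A, whereas Depp1 averaged 8.27 and Gstm2 averaged 8.55, above theirs. These genes were chosen by their likeness, so their differences from empty vector carry no test.

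**Figure D5:**
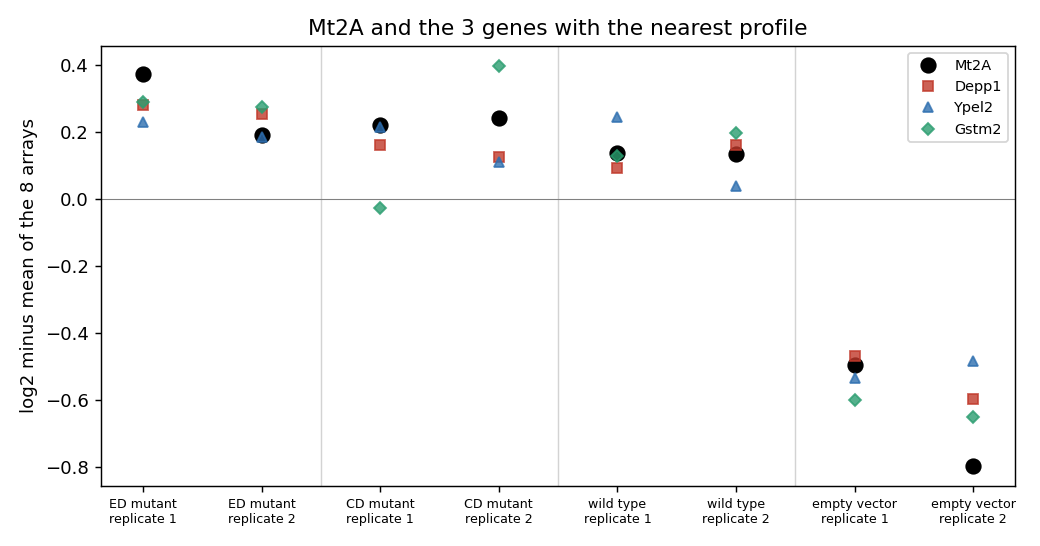
Log2 value minus the mean of the 8 arrays without the KD mutant, for Mt2A and the 3 named genes with the nearest profile, on each array. The points of all 4 genes lie below 0 on both empty vector arrays, and on the 6 other arrays only 1 point, Gstm2 on CD mutant replicate 1, lies below 0.

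By the probe sets annotated to them alone, Mt1 and Slc30a1 had flat profiles over the 8 arrays and no such narrow neighbourhood. Slc30a1 lay below the filter level, where RMA compresses differences. The brighter probe set shared by Mt1, Mt1f and Ttr lay 0.43 to 0.53 above empty vector in ED mutant, CD mutant and wild-type cells. For Mt1, which spanned 0.32 over the 8 arrays, the nearest genes were Gpr4, Ubac1 and Dpm2 at 0.03 each, and 14222 probe sets lay within 0.15. For Slc30a1, which spanned 0.34, they were Tmem87b, Ccdc191 and Ptges at 0.03 each, with 12855 probe sets within 0.15. Distances of this size were thus shared by most of the probe sets tested.

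The Affymetrix poly-A controls, RNAs added during labelling, varied between arrays. Their mean over 24 probe sets was log2 8.24 and 8.28 on the ED mutant arrays, 8.56 and 8.62 on the CD mutant arrays, 7.26 and 6.64 on the KD mutant arrays, 7.49 and 8.34 on wild-type arrays, and 8.02 and 7.76 on the empty vector arrays. The controls were lowest on the KD mutant arrays, as Mt2A was. Also as for Mt2A, all ED and CD mutant arrays lay above both empty vector arrays, whereas wild-type and empty vector arrays overlapped. The part of the controls in the results was not tested.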

How the data were processed

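Biotin-labelled total RNA from 10 samples of A7r5 cells was hybridised to Affymetrix rat arrays. The deposited values are on a log2 scale, 1 per probe set and array, and the submitters' processing notes name RMA as the method (version not given in the sources used here). Of 31099 probe sets, 57 controls were left out, and names came from the platform annotation (20826 probe sets with 1 gene, 436 with several, 9780 with none). The members and gene lists were chosen with earlier results of these data known. Probe sets reaching log2 4.82 on at least 2 arrays (22502) entered a linear model (limma 3.58.1, R 4.3.3; lmFit with 5 group means, contrasts, eBayes; 5 residual degrees of freedom, 11.4 after moderation), with two-sided p-values adjusted by Benjamini-Hochberg over all of them. SE is the moderated standard error. Each list gene stood by its brightest probe set on average. Called genes, or else the gene farthest from empty vector, were named. Same-numbered replicates were checked for pairing by correlating their deviations from group means. Motifs were searched in RefSeq promoters of GRCr8, and protein and probe sequences were not used here. No scanner intensities were used, and 2 arrays a group limit the precision.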

Additional observations from a re-analysis of the deposited data

How the results depend on the processing

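Settings tried were a stricter filter (60th percentile) or none, quantile normalization, centring of arrays on their median, eBayes with trend and robust variance, a replicate block, only the arrays compared, all probe sets of a gene, and leaving out the KD mutant arrays or each array in turn. Over results and alternatives, 509 values kept their side of the threshold or, with no test, moved by under 1 SD, 17 moved more and 3 reversed. The calls of Mt2A and Mt1 in the KD mutant against wild type held under each setting that fitted them. As deposited, 89.6% of all tested probe sets were called there, and Mt1 passed the filter through the other groups. That the calls held therefore says little about the members. Leaving out 1 array, the CD mutant minus wild-type difference of Mt1 ran from -0.011 to 0.03927, with -0.007735 without CD mutant replicate 2 and -0.011 without wild-type replicate 2, and that of Mt2A for the ED minus the CD mutant ran from -0.03995, without ED mutant replicate 1, to 0.1435. The list count for the ED mutant against wild type, 1 for Sgk1, ran from 0 to 1, and was 0 without either wild-type or either ED mutant array and 0 with only the 4 arrays compared. For the ED against the CD mutant it was 2 with trend and robust variance, where Gsr joined (limma adjusted p = 0.0346). With the replicate block Mt2A differed by -3.498 between KD mutant and wild type and the list counts did not change; over all probe sets it left 12 calls for the CD mutant and 1 for wild type against empty vector. The numbers did not pair the arrays: over 10 pairs of groups the correlation of deviations ran from -0.029 to 0.14, with 1 over 0.1. Mt2A in the KD mutant against empty vector was -3.005 after quantile normalization and -2.336 after centring, Mt1 was -1.635 and -1.611, and Slc30a1 was 0.23 and 0.083. Slc30a1 gave no value under the stricter filter, trend and robust variance, the block or only the arrays compared. Calls over all probe sets for the ED mutant against empty vector were 119. They were 493 with trend and robust variance and 319 without the KD mutant arrays. In the same order, counts against empty vector were 25, 144 and 43 for the CD mutant, and 3, 68 and 3 for wild type. They were 37, 142 and 55 for the ED mutant against wild type, and 79, 287 and 145 for the ED against the CD mutant. Each count as first fitted fell when any 1 array of the groups compared was left out, which leaves that group with 1 array. The cause was not tested.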

Other observations

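With the KD mutant arrays included, the genes with the profile nearest to that of Mt2A over all 10 arrays were Dhrs3 at a mean absolute distance of 0.17, Sema6d at 0.17 and Tnik at 0.20, and no probe set lay within 0.15. Dhrs3, a retinaldehyde reductase, averaged 8.63 in ED mutant, 8.39 in CD mutant, 4.97 in KD mutant, 8.30 in wild-type and 7.84 in empty vector cells. Sema6d, a semaphorin, averaged 7.93 in ED mutant, 7.87 in CD mutant, 4.23 in KD mutant, 7.49 in wild-type and 7.24 in empty vector cells. Over the same arrays the nearest genes to Mt1 were Apip, Rnf44 and Ccl27 at 0.07 each, with 902 probe sets within 0.15, and the nearest to Slc30a1 was Ddc at 0.05.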
